A study of Mus musculus with 2 samples.

Results

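The cells described here were 564 cycling, basophil-lineage cells with little Prss34 RNA from the cKIT+ sort of mouse bone marrow. They made up 564 of 6632 cells in the cKIT+ library and of 10377 cells in the series. They were chosen from measured values. A cell needed at least 2000 UMIs (unique molecular identifiers, each standing for 1 captured RNA molecule), and Mcpt8, Fcer1a, Ms4a2 and Cd200r3 together had to reach 0.5% of its UMIs. Cells with 3 or more UMIs of the B cell gene Cd79a, the macrophage gene C1qa, the eosinophil gene Prg2 or the cytotoxic gene Gzmb were left out, as were cells whose Elane and Prtn3, the serine proteases of neutrophil precursors, together reached 0.5%. This gate held 3098 cKIT+ cells. Of these, 2009 had at least 2 UMIs of the proliferation genes Mki67 and Top2a and are called cycling, and 564 of the 2009 had less than 1% of their UMIs from Prss34, a serine protease of basophils.

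Cells with surface E-cadherin had been sorted, as a cKIT+ and a cKIT- fraction, from the bone marrow of FVB mice, described as wild-type in the study's text and as VaviCre; mTmG in a legend, and their 3' RNA ends were counted by droplet sequencing. VaviCre drives Cre in blood cells and mTmG is a fluorescent reporter. Ages were not given in the sources used here, several mice were used with no label that ties a cell to an animal, and each sort gave 1 library. The study asked how the cKIT+ cells relate to the cKIT- basophil and mast cell precursors.

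Basophils are granulocytes that leave the marrow nearly mature, carry the high-affinity receptor for IgE and release histamine, proteases, cytokines and chemokines when it is cross-linked. They arise from granulocyte and monocyte progenitors through dividing precursors that carry cKIT, the receptor for stem cell factor, and lose it as they mature, while mast cells keep it. The cell cycle is driven by cyclins and cyclin-dependent kinases, with one set of genes used for DNA replication in S phase and another, switched on later, for chromosome condensation and the spindle in G2 and mitosis.

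With 1 library per sort there were no replicates, so no test was made and no p-value is given. Levels are summed UMIs of a group scaled to CPM (counts per 1e+06 UMIs of that group), ratios are ratios of CPM, and values in parentheses are 95% intervals (exact Poisson for a level, exact binomial for a share, exact conditional binomial for a ratio) that cover counting error only. The cKIT+ library held 95477153 UMIs with a median of 13074.5 per cell, and the cKIT- library 24033994 with a median of 4436. In the 564 cells, 10367172 UMIs were counted, from 2601 to 49892 per cell with a median of 18199.5, and a median of 4073 genes per cell was detected. Of their UMIs a median of 3.41% was mitochondrial. The comparison groups were the 491 non-cycling Prss34-low cells (median 10731 UMIs) and the 1445 cycling Prss34-high cells (16326) of the same gate and library, and 975 cycling gate cells of the cKIT- library (11069). Both libraries held 10 cell barcodes in common, 2 of them among the 564 cells.

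The genes that chose the cells give their description, not a finding. Mcpt8, the basophil granule protease, was read in all 564 cells, with 13 UMIs in the lowest cell, 188.5 at the median and 769 in the highest. Ms4a2, the beta chain of the IgE receptor, had 2, 22 and 67 UMIs in the same order. Fcer1a, the IgE-binding alpha chain of that receptor, was unevenly read, with 0, 4 and 117 UMIs and at least 1 UMI in 70.0% of cells (66.1% to 73.8%). Cd200r3, an activating receptor of basophils, was read in 8.33% of cells (6.19% to 10.9%). Together these genes made up a median of 1.17% of a cell's UMIs, while Prss34 made up a median of 0.348% and was read in all but 9 cells. The Mcpt8 level was 11889 CPM, against 12850 in the non-cycling Prss34-low cells, 24931 in the cycling Prss34-high cells and 34603 in the cycling cKIT- cells. Such counts also appeared where they should not. In the cKIT+ library 69 cells had 3 or more Cd79a UMIs, and as B cells should make no basophil protease. In them Mcpt8 stood at 1557 CPM and Prss34 at 2435 CPM, at a median depth of 3582 UMIs. They were chosen on Cd79a and at least 2000 UMIs alone, with doublets kept. Whether a few of them gave these UMIs was not tested. Prss34, at 3873 CPM in the cycling Prss34-low cells, was less than 2-fold above the level in these 69 cells, whereas Mcpt8 was far above. The reference cells were shallower, and 146 of the 564 cells had under 0.1% of UMIs from Prss34, below the reference level. That level is therefore no measured background for the 564 cells.

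The basophil lineage label was checked on genes that the selection did not use. Each cell was thinned to 2000 UMIs so that depth could not set the share of cells with a UMI. Gata2, a transcription factor needed for the basophil and mast cell lineages, was then found in 70.2% of the cells (66.3% to 74.0%), against 5.80% of the 69 B cell reference cells (1.60% to 14.2%). Cpa3, the carboxypeptidase of mast cell and basophil granules, was found in 95.4% (93.3% to 97.0%), against 8.70% of the reference cells. Without thinning the shares were 99.5% and 99.8% of the cells and 8.70% and 15.9% of the reference cells. These genes, outside the selection, set the cells apart from B cells. They are shared by basophils and mast cells, so they do not separate those 2 lineages.

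The cKIT part of the label was carried by the sort, and Kit RNA was sparse. Kit (chr5:75574916-75656722, mm10), the gene of the cKIT receptor, had 270 UMIs in all 564 cells, 0 at the median and 3 in the highest cell, and a level of 26.0 CPM (23.0 to 29.3). The B cell reference stood at 18.5 CPM (9.53 to 32.2), but early B cells of the marrow can carry cKIT, so these cells do not give the free RNA level of Kit. At 2000 UMIs per cell Kit was found in 3.90% of the cells (2.46% to 5.85%) and in 2.90% of the reference cells (0.353% to 10.1%). Before thinning the shares were 34.6% and 8.70%. In 588 cells of the same library in which Elane and Prtn3 reached the excluded share, the Kit level was 53.8 CPM (50.2 to 57.6).

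Cells on either side of the limits on Prss34, on Mki67 and Top2a and on the basophil genes are given as a description. The 33 cells with 0.9% to 1% Prss34 had a Kit level of 20.2 CPM and a Cdh1 level of 75.7 CPM, and the 30 cycling cells just outside, with 1% to 1.1%, had 24.8 and 88.6 CPM. With exactly 2 UMIs of Mki67 and Top2a 60 cells were inside, with Kit at 22.9 and Cdh1 at 82.7 CPM, and 133 cells with 1 UMI were outside, with 22.4 and 93.6 CPM. The 358 cells with 0 such UMIs had 25.1 and 114.9 CPM. At the limit on basophil genes, 46 cells lay between 0.5% and 0.6% and 53 otherwise qualifying cells between 0.4% and 0.5%, with Kit at 39.8 and 32.5 CPM.

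A lower share of Prss34-low than of Prss34-high gate cells was cycling. Cycling cells were 564 of 1055 Prss34-low cells, 53.5% (50.4% to 56.5%), and 1445 of 2043 Prss34-high cells, 70.7% (68.7% to 72.7%). When every cell was thinned to 2000 UMIs and 1 UMI of Mki67 or Top2a was asked for, the shares were 38.7% (35.7% to 41.7%) and 57.3% (55.1% to 59.4%). In the cKIT- library the Prss34-low cells were nearly all non-cycling, with 7 of 837 cells cycling, 0.836% (0.337% to 1.72%), whereas 50.7% of its Prss34-high cells (48.4% to 52.9%) were. After thinning the cKIT- shares were 2.15% (1.28% to 3.38%) and 44.6% (42.3% to 46.9%). These shares rest on Mki67, Top2a and Prss34, which chose the cells, and are a description. The combination of Mki67 and Top2a UMIs with little Prss34 RNA was common in 1 library and rare in the other. The sort and the library cannot be told apart.

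Against the non-cycling Prss34-low cells, the largest differences were in cell cycle genes. Since Mki67 and Top2a chose the sides, these differences are a description of what came along with them. Of 2884 genes with at least 50 CPM in either group, 114 or 3.95% were at least 2-fold higher in the cycling cells and 11 or 0.381% at least 2-fold lower, and the median log2 ratio was 0.08. The count of lower genes varied with the processing, from 5 with at least 5000 UMIs per cell to 22 with equal weight per cell and 25 after thinning. Of the 37 genes of G2 and mitosis compared (without Mki67 and Top2a), 34 were at least 2-fold higher, with a median log2 ratio of 3.26. S phase genes were less changed, with 9 of 28 at least 2-fold higher and a median of 0.57. The non-cycling cells were set by Mki67 and Top2a alone, and some had high S phase shares. In them the S phase list made up a median of 0.188% of a cell's UMIs, with a 95th percentile of 0.554% and a maximum of 0.877%. The median of the cycling cells was 0.397%. How far this lowered the S phase ratios was not tested. Among histones 7 of 12 were at least 2-fold higher, with a median of 1.34, and no gene of these 3 lists was at least 2-fold lower.

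The genes with the largest ratios were mostly genes of mitosis. Hmmr, a spindle-associated protein, was at 132 CPM against 1.52 CPM, a ratio of 87.1 (44.1 to 202). Plk1, the mitotic polo-like kinase, was at 51.3 against 0.759 CPM, a ratio of 67.6 (26.2 to 249). Nusap1, which bundles spindle microtubules, was at 137 against 3.23 CPM, and Ube2c, the ubiquitin-conjugating enzyme that serves the anaphase-promoting complex, at 454 against 12.2 CPM. Their counts in the non-cycling cells were 8 UMIs for Hmmr, 4 for Plk1, 17 for Nusap1 and 64 for Ube2c. Next in order came Ccna2 (cyclin A2), Birc5 (survivin, of the chromosomal passenger complex), Kif11 (a spindle motor), Pbk (a mitotic kinase), the linker histone gene Hist1h1b and Spc25 (of the outer kinetochore), with ratios between 27.8 and 37.2. Cdk1, the kinase that starts mitosis, was at 188 against 12.7 CPM, and its partner cyclin B1 (Ccnb1) at 103 against 5.13 CPM.

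Of the replication genes, Rrm2, the small subunit of ribonucleotide reductase, was at 80.0 against 8.73 CPM. Tyms, which makes thymidylate for DNA, was at 226 against 80.3 CPM. Mcm5, a subunit of the replicative helicase, differed least among those named, at 120 against 80.1 CPM. The genes named thus differed widely in ratio within the S phase list.

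Promoter windows of the cell cycle lists were searched for letter patterns known from cell cycle genes. The windows ran from 250 bases before to 50 after each start (RefSeq, GRCm38.p6), were searched on both strands, and cover 32851 starts in all. CCAAT, the box bound by NF-Y, was present in 37.4% of all windows. Letters of the cell cycle homology region (CHR-like), searched as TTTGAA and also in the form TTTAAA, were present in 27.6%. Letters of E2F sites (E2F-like) were searched as TTCCCGC, in another form as TTTGGCG, and in a further form spelled TTTCGCG, and were present in 6.72%. Of the 55 genes of G2 and mitosis 48 were matched, with 53 windows, of which 75.5% held CCAAT, 79.2% a CHR-like match, 62.3% both (10.7% of all windows) and 11.3% an E2F-like match. Of the 43 S phase genes 31 were matched, with 34 windows, of which 67.6% held CCAAT, 26.5% a CHR-like and 55.9% an E2F-like match. CCAAT was not particular to these lists, since the 17 windows of the list for folding and secretion in the endoplasmic reticulum held it in 76.5%, with a CHR-like match in 5.88% and an E2F-like match in 17.6%. The windows of Hmmr, Plk1 and Ube2c are shown because these genes were 3 of the 4 highest in ratio, and that of Rrm2 because it was the S phase gene with the highest ratio. Capitals mark the matches, read on either strand, so that CCAAT also appears as its complement ATTGG, and in Ube2c the run CCAATTGG holds overlapping matches.

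Hmmr promoter, chr11:40733388-40733687, minus strand: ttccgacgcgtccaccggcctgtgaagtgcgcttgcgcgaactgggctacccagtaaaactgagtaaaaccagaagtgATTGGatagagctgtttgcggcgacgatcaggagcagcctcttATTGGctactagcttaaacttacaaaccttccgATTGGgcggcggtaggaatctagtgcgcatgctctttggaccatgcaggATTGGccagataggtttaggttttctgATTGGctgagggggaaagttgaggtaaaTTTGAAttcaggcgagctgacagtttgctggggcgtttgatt

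Plk1 promoter, chr7:122159185-122159484, plus strand: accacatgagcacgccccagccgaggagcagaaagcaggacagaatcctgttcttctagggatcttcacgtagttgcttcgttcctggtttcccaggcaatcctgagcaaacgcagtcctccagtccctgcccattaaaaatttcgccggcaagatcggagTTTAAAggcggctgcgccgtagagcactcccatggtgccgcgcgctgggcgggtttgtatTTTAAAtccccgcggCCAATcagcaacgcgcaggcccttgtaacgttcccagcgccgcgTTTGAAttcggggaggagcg

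Ube2c promoter, chr2:164769679-164769978, plus strand: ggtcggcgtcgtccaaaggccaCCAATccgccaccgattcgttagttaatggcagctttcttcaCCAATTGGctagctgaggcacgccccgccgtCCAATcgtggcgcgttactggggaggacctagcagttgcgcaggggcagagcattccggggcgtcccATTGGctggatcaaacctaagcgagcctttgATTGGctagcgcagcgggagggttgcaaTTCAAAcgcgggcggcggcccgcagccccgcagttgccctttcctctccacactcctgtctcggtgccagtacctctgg

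Rrm2 promoter, chr12:24708004-24708303, plus strand: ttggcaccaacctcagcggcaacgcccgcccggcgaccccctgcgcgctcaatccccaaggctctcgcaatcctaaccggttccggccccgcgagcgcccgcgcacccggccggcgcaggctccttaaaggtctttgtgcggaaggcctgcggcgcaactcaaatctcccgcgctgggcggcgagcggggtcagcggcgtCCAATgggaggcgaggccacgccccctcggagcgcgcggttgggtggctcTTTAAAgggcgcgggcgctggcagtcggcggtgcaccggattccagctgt

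Hmmr held 5 CCAAT matches and 1 CHR-like match, Plk1 1 and 3, and Ube2c 6 and 1. Rrm2 held 1 of each and no E2F-like match. In the window of Nusap1, the third in ratio, none of these letters was found. A match is a run of letters and was not tested as a binding site.

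The cells spread along the cycle. In each cell the S phase list made up between 0.0311% and 1.03% of UMIs with a median of 0.397%, and the G2 and mitosis list (without Mki67 and Top2a) between 0.0983% and 2.49% with a median of 0.710%. The 95th percentile of the non-cycling cells, 0.554% for S phase and 0.369% for G2 and mitosis, was used as a line for each list. The S phase line thus lay above the median of the 564 cells, and the G2 and mitosis line below it. Over the G2 and mitosis line alone were 339 cells, 60.1% (55.9% to 64.2%). Over both lines were 104 cells, 18.4% (15.3% to 21.9%), over the S phase line alone 28, 4.97% (3.32% to 7.10%), and under both 93, 16.5% (13.5% to 19.8%). These are ranges of a score and not phases, and 128 of the 564 cells lay within 10% of a line.

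**Figure D1:**
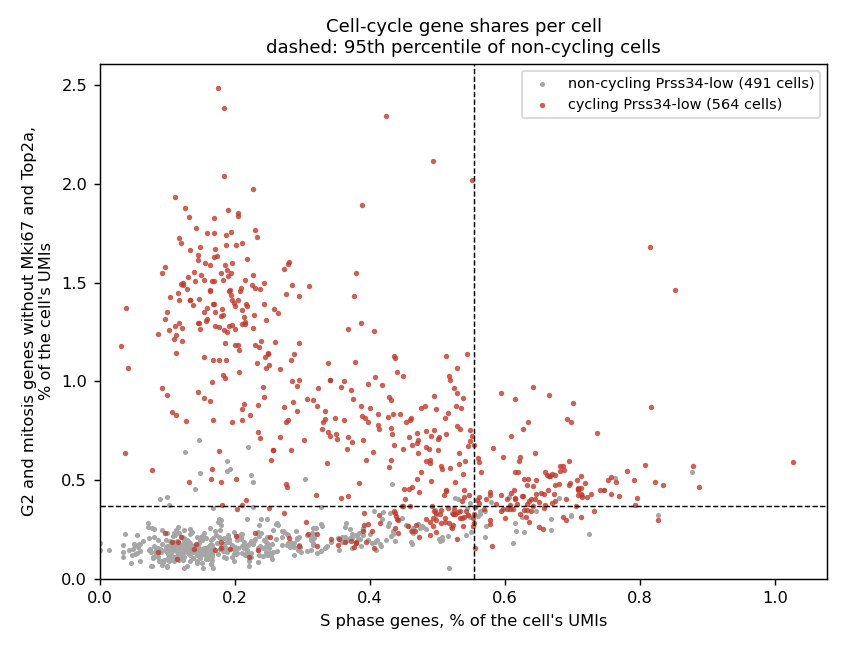
Each point is 1 cell, with the S phase genes (x axis) and the G2 and mitosis genes without Mki67 and Top2a (y axis) as a percentage of its UMIs. Red points are the 564 cycling Prss34-low cells, grey points the 491 non-cycling Prss34-low cells, and dashed lines the 95th percentiles of the grey points at 0.554% and 0.369%. The red points form an arc, with 339 cells in the upper left field and 104 in the upper right.

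In the plot of the list shares per cell the lists ran against each other, with a Spearman rho of -0.54 over 564 cells that share 1 library, although most cells over the S phase line were over both lines (104 cells against 28). The ranges were built from the lists, so the levels of list genes in them are a description. Hmmr stood at 197 CPM in the cells over the G2 and mitosis line alone and at 0.676 CPM in those under both lines, and Ccnb1 at 151 and 14.2 CPM. In the cells over both lines Hmmr stood at 27.5 CPM and Ccnb1 at 16.7 CPM. Ccne2, the cyclin of S phase entry, stood at 27.5 CPM in the cells over both lines and at 4.46 CPM in those over the G2 and mitosis line alone. Hist1h1b, a replication-dependent linker histone gene that was in neither list, stood at 858 CPM in the cells over the G2 and mitosis line alone, 296 over both lines, 33.1 over the S phase line alone and 18.9 under both. Kit stood at 26.4, 22.8, 26.6 and 24.5 CPM in the cells under both lines, over S phase alone, over G2 and mitosis alone and over both. Median depth differed between the ranges, from 15436 UMIs under both lines to 20352 over the G2 and mitosis line alone. Among the cycling Prss34-high cells 7.20% lay under both lines, 5.26% over S phase alone, 62.8% (60.2% to 65.3%) over G2 and mitosis alone and 24.8% over both.

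Some lists outside the cell cycle held no gene that differed 2-fold. The comparison was with the Prss34-low cells that had fewer than 2 UMIs of Mki67 and Top2a. Of those 491 cells, 133 had 1 such UMI. No gene of the lists for basophil receptors (11 compared), transcription factors (18), early progenitors (11) or ribosome biogenesis (25) differed 2-fold. Over all genes compared, 3.95% were at least 2-fold higher and 0.381% lower, so 0 in lists of this size is near that share. The list medians of the log2 ratio were -0.30, -0.14, -0.12 and 0.34 against 0.08 for all genes. Cd34, the sialomucin of early blood progenitors, was at 112 CPM in the cycling and 97.4 CPM in the non-cycling cells. Myb, a transcription factor of dividing progenitors, was at 284 and 265 CPM, and Kit at 26.0 and 24.3 CPM, a ratio of 1.07 (0.865 to 1.33). Cebpa, a transcription factor that drives myeloid differentiation and restrains division, was at 248 (239 to 258) and 384 CPM, a ratio of 0.647 (0.610 to 0.686). Cdh1 (chr8:106603351-106670246), the gene of E-cadherin, was at 68.5 CPM (63.5 to 73.7) and 108.6 CPM, a ratio of 0.631 (0.564 to 0.705). Npm1, the abundant nucleolar chaperone, was at 2070 and 1817 CPM, and nucleolin (Ncl) at 964 and 759 CPM.

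Among the 11 genes at least 2-fold lower in the cycling cells were chemokines, a lectin and metabolic genes. The chemokines Ccl6 and Ccl3 were at 33.4 against 128.5 CPM and at 23.2 against 74.2 CPM, and 2 of the 4 cytokine and chemokine genes compared were 2-fold lower, against 0.381% of all genes compared. Lymphotoxin beta (Ltb) was at 49.4 against 171 CPM and galectin-3 (Lgals3) at 57.9 against 191 CPM. Txnip, an inhibitor of glucose uptake and thioredoxin, was at 105 against 238 CPM. Gpr183, a receptor for oxysterols, Hacd4, a fatty acid elongation enzyme, Ypel3, a growth-restraining gene, and Tmem71 had ratios from 0.376 to 0.459. Retnlg, a neutrophil gene with the lowest ratio, is no property of the group as a whole, since 97.7% of its UMIs in the non-cycling cells came from 5 cells.

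**Figure D2:**
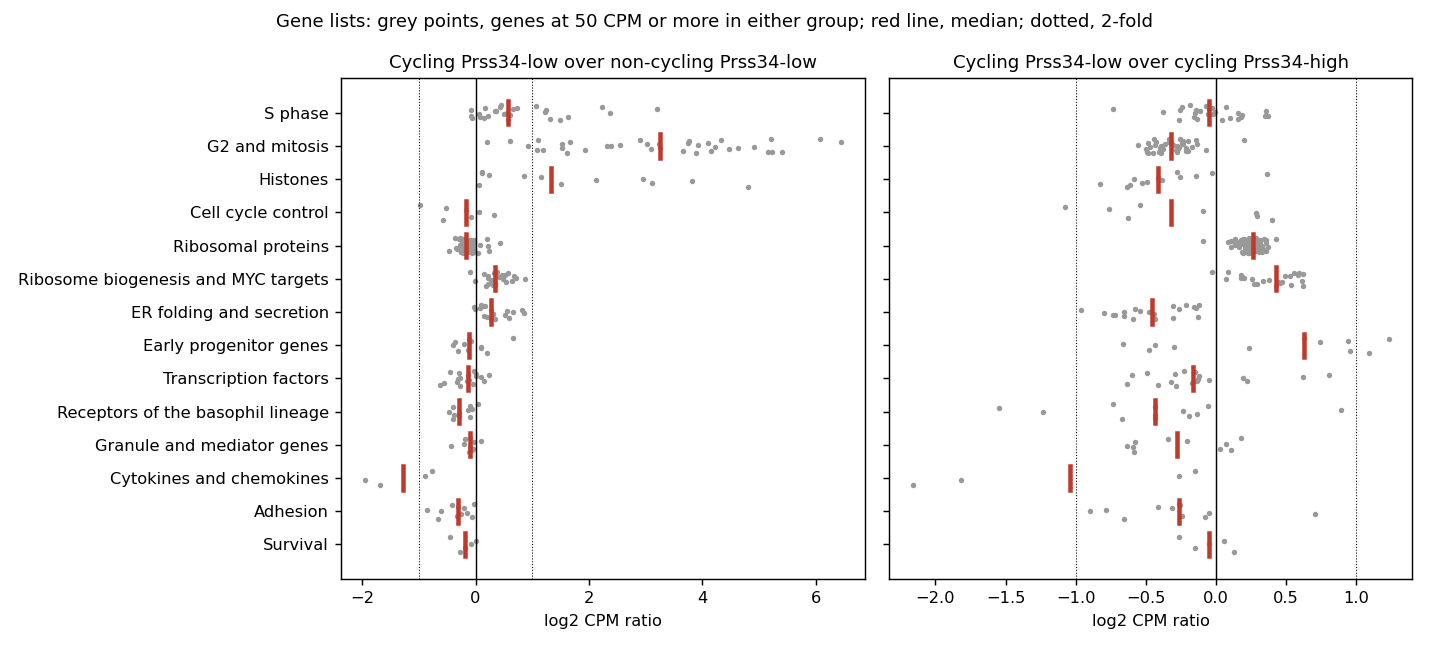
Log2 CPM ratio of the cycling Prss34-low cells over the non-cycling Prss34-low cells (left) and over the cycling Prss34-high cells (right), by gene list. Grey points are genes with at least 50 CPM in either group, red lines list medians and dotted lines a 2-fold ratio. On the left the G2 and mitosis list has a median of 3.26 and most lists lie near 0, and on the right the early progenitor list has a median of 0.62 and the cytokine and chemokine list one of -1.04.

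Cyclins and the inhibitors of their kinases differed in level among the 4 groups. Ccnd2, a D-type cyclin of mitogen-driven entry into the cycle, was at 70.1 CPM in the cycling Prss34-low cells, 105 in the non-cycling Prss34-low, 53.1 in the cycling Prss34-high and 18.3 in the cycling cKIT- cells. Ccnd3, another D-type cyclin, was at 150, 158, 232 and 377 CPM, so that it was higher than in the Prss34-low cells where Ccnd2 was lower, in the Prss34-high and cKIT- cells. Cdkn2d, an inhibitor of CDK4 and CDK6 (p19), was at 49.0, 20.7, 103 and 253 CPM, and the related inhibitor Cdkn2c (p18) at 29.6, 10.1, 50.3 and 114 CPM. Of 8 cell cycle control genes compared with the cycling Prss34-high cells, Cdkn2d was the one at least 2-fold lower (0.761% of all 2891 genes compared were), with the Prss34-high cells 2.11 times higher (1.92 to 2.32). Of 7 compared with the non-cycling Prss34-low cells, none differed 2-fold. Over all genes in that comparison, 3.95% were at least 2-fold higher and 0.381% lower, so 0 of 7 is near that share. Cdkn2d and Cdkn2c were below 50 CPM in the cycling and the non-cycling Prss34-low cells and so not among the 7. Cdkn2d had a ratio of 2.37 (1.92 to 2.94), and Cdkn2c was at 29.6 against 10.1 CPM.

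Compared with cycling Prss34-high cells of the same library, few genes differed 2-fold, among them the progenitor gene Cd34 on the higher side and the chemokine genes Ccl3 and Ccl6 on the lower. Prss34 chose the sides and is left out, and the differences describe what came with it. Of 2891 genes compared, 5 or 0.173% were at least 2-fold higher (Cd34, Khk, Rgcc, Tmem176b and Tnfrsf13b) and 22 or 0.761% at least 2-fold lower, with a median log2 ratio of 0.01. These counts varied with the processing, with 16 higher and 37 lower after thinning and 0 and 2 at a minimum of 200 CPM. The early progenitor list had 2 of 11 genes at least 2-fold higher, a median log2 ratio of 0.62, and none lower.

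Cd34 was at 112 against 52.9 CPM, a ratio of 2.12 (1.96 to 2.30), and at 2000 UMIs per cell it was found in 18.4% (15.3% to 21.9%) against 8.44% (7.06% to 10.0%) of cells, with 2.90% in the B cell reference, whose early members can also carry CD34. Before thinning those shares were 78.5%, 47.7% and 7.25%. Tmem176b, a membrane channel protein of myeloid cells, was at 122 against 51.8 CPM, a ratio of 2.35 (2.17 to 2.54), and its neighbour Tmem176a at 111 against 58.0 CPM. The genes overlap on opposite strands (chr6:48833818-48841496 and chr6:48840919-48847071), and whether strand was used in counting is not given in the sources used here. Rgcc, a regulator of the cell cycle, was at 132 against 58.7 CPM, Khk, ketohexokinase of fructose metabolism, at 61.5 against 27.4 CPM, and Tnfrsf13b, the receptor TACI, at 51.5 against 25.7 CPM, a ratio of 2.00 (1.78 to 2.25).

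Further genes stood higher by less than 2-fold. Sox4, a transcription factor of progenitors, had a ratio of 1.94 (1.83 to 2.06) at 187 against 96.4 CPM. Lmo4, a LIM-domain cofactor of transcription, was at 1226 against 700 CPM, and Apoe, an apolipoprotein, at 1160 against 694 CPM. Ifngr1, the ligand-binding chain of the interferon gamma receptor, was at 128 against 69.2 CPM. Myc, a driver of growth, was at 42.8 against 25.5 CPM and Myb at 284 against 185 CPM. Itga4, the alpha 4 integrin that holds progenitors in the marrow, was at 82.2 against 50.5 CPM. Levels of these genes in the non-cycling Prss34-low cells were near those of the cycling ones, at 233 CPM for Sox4, 1350 for Lmo4, 1485 for Apoe, 134 for Ifngr1, 49.2 for Myc and 98.5 for Itga4.

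The 10 genes lowest in ratio included enzymes, chemokines and receptors of basophils and eosinophils. Cyp4f18, which breaks down leukotriene B4, was at 13.4 against 90.3 CPM, with the Prss34-high cells 6.73 times higher (5.67 to 8.05). Itga1, an integrin chain that binds collagen, was at 12.4 against 59.5 CPM and Nucb2, a calcium-binding protein, at 11.3 against 51.1 CPM. Alox15, a lipoxygenase, was at 18.2 against 69.2 CPM and Ear2, an eosinophil-associated ribonuclease, at 11.8 against 52.0 CPM. Ccl3 and Ccl6, at 23.2 and 33.4 CPM, stood at 104 and 118 CPM in the Prss34-high cells. Atp1b1, a subunit of the sodium pump, and Igfbp7, a secreted binding protein, had ratios of 0.259 and 0.290. Cd200r1, an inhibitory receptor of myeloid cells, was at 26.6 against 77.9 CPM. Of the 4 cytokine and chemokine genes compared, 2 were at least 2-fold lower, with a list median of -1.04, against 0.761% of all genes compared and their median of 0.01.

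Of 12 receptor genes compared, 2 were at least 2-fold lower, Cd200r1 and Il18rap, against 0.761% of all genes. Il18rap, a chain of the interleukin 18 receptor, was at 49.9 against 117 CPM. Fcer1g, the signalling chain of the IgE receptor, was at 827 against 1314 CPM, and Il3ra, the alpha chain for interleukin 3, at 134 against 181 CPM. Csf2rb, the shared signalling chain for interleukin 3, interleukin 5 and GM-CSF, was close, at 229 against 262 CPM. The list median was -0.44. None of 10 granule and mediator genes differed 2-fold, which is near the share over all genes, and their median was -0.27. Cpa3 was at 2281 against 3427 CPM, and Hdc, the enzyme that makes histamine, at 295 against 274 CPM.

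Of 18 transcription factor genes 0 differed 2-fold from the Prss34-high cells, near the share over all genes (0.173% higher and 0.761% lower), with a median of -0.16. Gata2 was at 602 against 732 CPM, Cebpa at 248 against 330 CPM and Cebpb, which is used late in granulocyte maturation, at 172 against 267 CPM. Gata1, a factor of erythroid, mast cell and basophil fate, was at 37.3 against 39.1 CPM. Mpo, the myeloperoxidase of primary granules, was read in 99.8% of the Prss34-low cells, at 3532 CPM against 2997 CPM, and 3.89% of its UMIs came from the 5 highest cells. At 2000 UMIs per cell it was found in 97.9% (96.3% to 98.9%) of cells and in 11.6% of the B cell reference. Ctsg, cathepsin G, was at 4035 against 4662 CPM. In the 588 cells over the Elane and Prtn3 limit and under the basophil gene limit, the level of Mpo was 9168 CPM.

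The 2 genes that encode the sort proteins differed in opposite directions. Kit was 2.28 times higher (1.93 to 2.71) in the cycling Prss34-low than in the cycling Prss34-high cells, at 26.0 against 11.4 CPM, with 16.9 CPM in the non-cycling Prss34-high cells. At 2000 UMIs per cell Kit was found in 3.90% (2.46% to 5.85%) of the low and 1.66% (1.07% to 2.46%) of the high cells. Before thinning those shares were 34.6% and 15.8%. Cdh1 was at 68.5 against 107.8 CPM, with the Prss34-high cells 1.57 times higher (1.45 to 1.71). At 2000 UMIs per cell Cdh1 was found in 13.8% (11.1% to 17.0%) of the low and 20.6% (18.5% to 22.7%) of the high cells. Of the B cell reference, 0 of 69 had a UMI at that depth (upper bound of the exact interval for that detected share, 5.21%). Before thinning those shares were 62.2%, 79.7% and 5.80%.

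**Figure D3:**
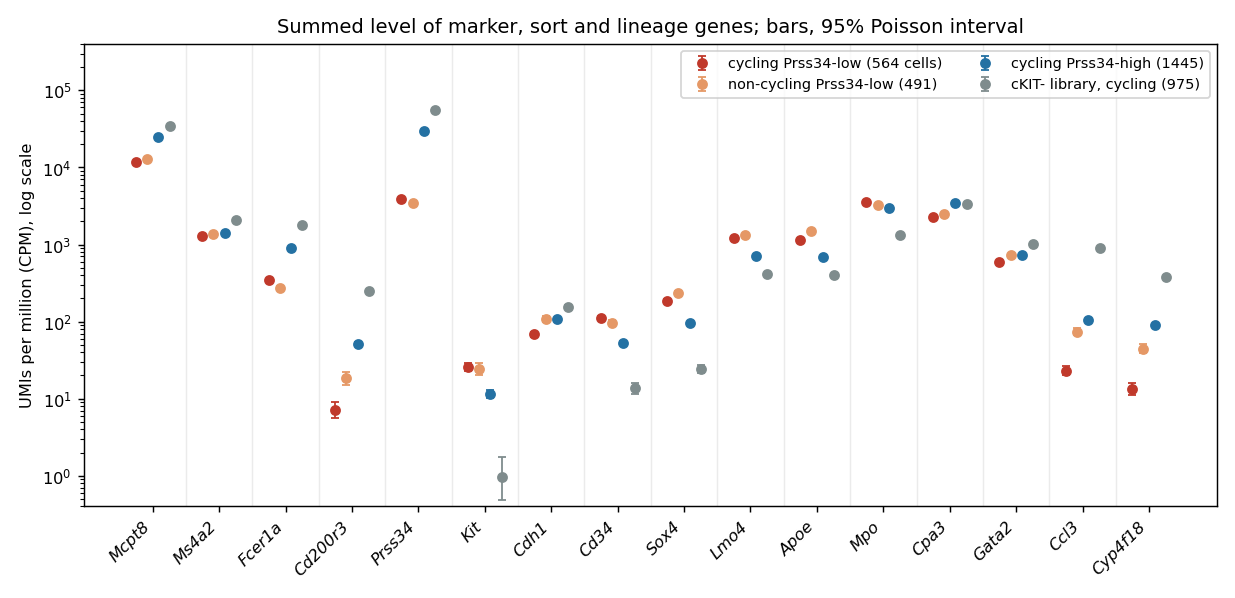
Summed level (CPM, log scale) of marker, sort and lineage genes in the cycling Prss34-low cells (red), non-cycling Prss34-low cells (orange), cycling Prss34-high cells (blue) and all cycling gate cells of the cKIT- library (grey), with 95% Poisson intervals. The red and orange points lie together for Kit (26.0 and 24.3 CPM) and Cd34 (112 and 97.4 CPM), while the grey points are lowest for both (0.970 and 13.7 CPM) and highest for Ccl3 (908 CPM).

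Genes of growth and of the secretory pathway differed by small amounts. Ribosomal protein genes made up 28.4% of UMIs in the cycling Prss34-low cells, 31.8% in the non-cycling Prss34-low cells and 23.8% in the cycling Prss34-high cells, and none of the 75 compared differed 2-fold from either group. Of 25 ribosome biogenesis genes none was 2-fold different from the Prss34-high cells, with a median log2 ratio of 0.43, and Npm1 was at 2070 against 1346 CPM. Genes of protein folding in the endoplasmic reticulum went the other way, with 0 of 20 at 2-fold and a median of -0.46. Pdia6, a disulfide isomerase, was at 660 against 1098 CPM and Creld2, an endoplasmic reticulum stress gene, at 70.6 against 138 CPM. None of 29 S phase and 42 G2 and mitosis genes differed 2-fold, with medians of -0.05 and -0.32. Adhesion genes (11 compared) and survival genes (5) also had none at 2-fold, with medians of -0.27 and -0.05. Over all genes, 0.173% were at least 2-fold higher and 0.761% lower than in the Prss34-high cells, so these counts of 0 are near that share. Against the non-cycling Prss34-low cells the shares over all genes were 3.95% and 0.381%.

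Over the Prss34 range of the cycling cells several genes ran as gradients, some of them also among the 564 cells themselves. The 2009 cycling cells were cut into 7 bins of Prss34 share, 4 of them (146, 89, 125 and 204 cells) inside the group. Cd34 was at 120, 138, 106 and 99.9 CPM from the lowest to the highest of the 4, then at 80.6, 49.8 and 23.7 CPM in the bins of 1% to 2%, 2% to 4% and 4% or more. Kit was at 30.5 (24.2 to 37.8), 30.8, 25.2 and 21.4 (17.0 to 26.6) CPM and then at 17.9, 10.3 and 5.49 CPM. The 4 inner bins rest on few Kit UMIs, with 82 in the first and 80 in the fourth.

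Within the group, Lmo4 went from 1485 (1439 to 1532) to 1051 (1019 to 1085) CPM, Sox4 from 228 to 156 CPM and Apoe from 1350 to 1048 CPM between the lowest and the highest of the 4 bins. Mcpt8 went from 9010 to 13860 CPM and Fcer1a from 242 to 431 CPM, with 32269 and 1186 CPM in the bin of 4% or more. Ms4a2 was at 1319, 1326, 1203 and 1284 CPM in the 4 inner bins. Cd200r3 was at 2.97 (1.28 to 5.86) CPM in the lowest and 11.5 (8.31 to 15.5) CPM in the highest of the 4 bins. Mcpt8, Fcer1a, Ms4a2 and Cd200r3 were part of the selection, and free RNA of the other cells was not subtracted. Not every gene was ordered. Mpo was highest near the upper limit of the group, at 2979, 3560, 3654 and 3840 CPM in the 4 inner bins and 3645, 3029 and 2101 CPM beyond. Cdh1 was at 71.4, 57.2, 50.4 and 82.5 CPM inside and at 93.6, 107 and 128 CPM beyond.

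Of the cell cycle regulators, Cdkn2d was at 38.7 (31.6 to 46.8), 43.3, 52.6 and 56.6 (49.3 to 64.8) CPM in the 4 inner bins and at 167 CPM in the last bin. Ccnd3 was at 131, 126, 158 and 170 CPM inside the group and at 303 CPM in the last bin. Ccnd2 was at 76.2 (66.1 to 87.4), 62.2, 70.9 and 68.7 (60.5 to 77.6) CPM inside, with overlapping intervals and no order, and at 37.9 CPM in the last bin. Npm1 went from 2265 to 1895 and to 909 CPM, and the ribosomal share of UMIs from 29.5% to 27.3%. The S phase list stayed between 0.377% and 0.401% of UMIs in all 7 bins. The G2 and mitosis list was unordered in the 4 inner bins, at 0.833%, 0.906%, 0.803% and 0.897%, and at 1.36% in the last. Median depth lay between 17939 and 18633 UMIs in the 4 inner bins and at 14575 UMIs in the last.

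**Figure D4:**
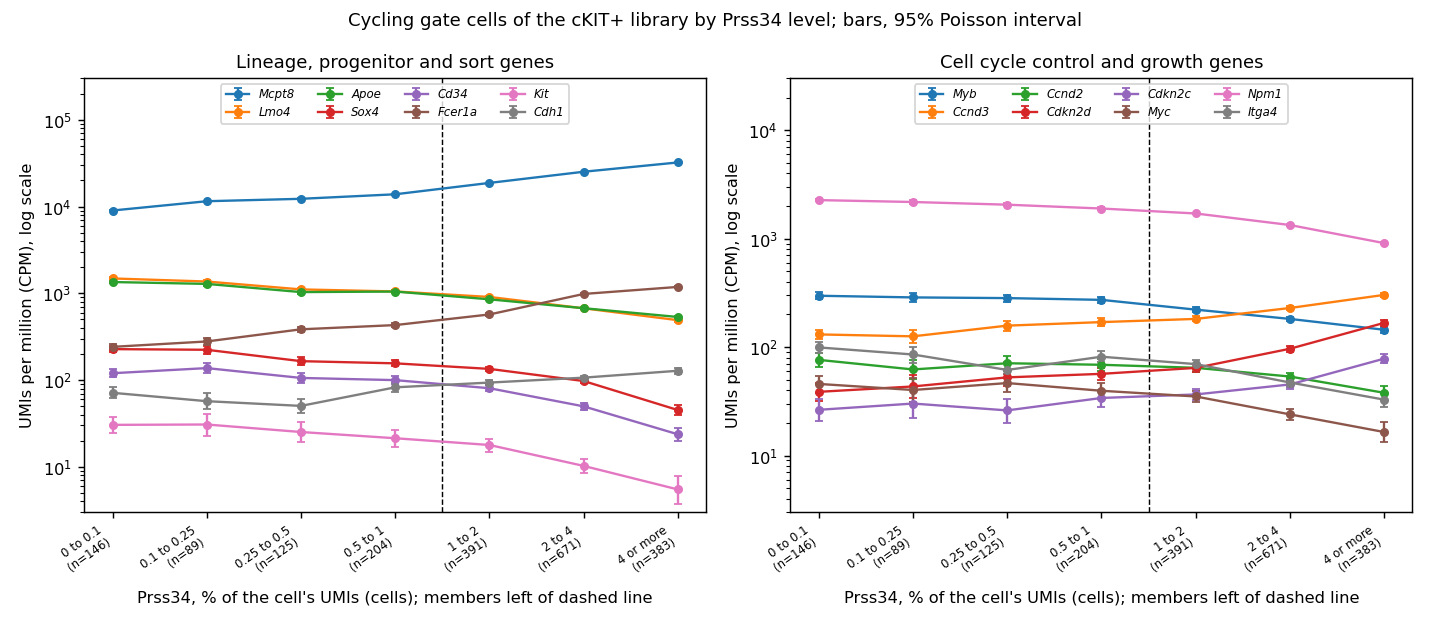
Level (CPM, log scale, with 95% Poisson intervals) of 16 genes in the 2009 cycling gate cells of the cKIT+ library by Prss34 share (x axis, 7 bins). Bins left of the dashed line hold the 564 cycling Prss34-low cells. Cd34 goes from 120 CPM in the first bin to 23.7 CPM in the last and Cdkn2d from 38.7 to 167 CPM.

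The cKIT- library held 7 cells that met the same limits. They had 88212 UMIs in all, so 1 UMI was worth 11.3 CPM. Kit had 0 UMIs in them, and the level that 3 counts would give, 34.0 CPM, is above the 26.0 CPM of the 564 cells, so no difference in Kit was detectable. The Cdh1 ratio of the 564 cells over the 7 was 0.432 (0.256 to 0.793). With at least 5000 UMIs per cell, which left 6 of the 7, it was 0.519 (0.288 to 1.04), an interval that takes in 1, and with each cell given the same weight it was 0.277. The comparison was therefore extended to all 975 cycling gate cells of the cKIT- library, a choice made after the data were seen. Those cells had a Prss34 level of 55558 CPM, so the sort, the library and the Prss34 level cannot be told apart.

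In that comparison, 191 of 3173 genes (6.02%) were at least 2-fold higher in the cycling Prss34-low cells and 256 (8.07%) at least 2-fold lower, with a median log2 ratio of -0.08. When the 10 most abundant genes were left out of the totals, 141 were higher and 394 lower, so that the share of higher genes among the differing ones went from 42.7% to 26.4%, and the median log2 ratio was -0.23. Kit was 26.9 times higher (14.8 to 54.4), at 26.0 against 0.970 CPM, and 45.1 times (20.4 to 124) when at least 4 UMIs of Mki67 and Top2a were asked for. How much of the Kit ratio belongs to the library was not tested. Cdh1 was at 68.5 against 156.3 CPM, a ratio of 0.438 (0.401 to 0.478). Of 11 early progenitor genes 7 were at least 2-fold higher and 3 lower, with Cd34 8.21 times higher (6.94 to 9.78), Sox4 7.63 times (6.72 to 8.68) and Tmem176b 10.5 times (8.78 to 12.7). Ribosome biogenesis genes were at least 2-fold higher in 16 of 25 cases and ribosomal protein genes in 37 of 75, with none lower.

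On the other side, receptors had 9 of 15 genes at least 2-fold lower and 1 higher, and cytokines and chemokines 5 of 6 lower. Over all genes in this comparison, 8.07% were at least 2-fold lower and 6.02% higher. Ccl3 was at 23.2 against 908 CPM, 39.2 times higher in the cKIT- cells (34.5 to 44.75). The adenosine receptor gene Adora2b, the receptor gene Lilr4b, Ccl4 and Skap1, an adaptor of integrin activation, were among the 10 lowest in ratio. Each had a ratio under 0.05. The G2 and mitosis list had 12 of 47 genes at least 2-fold lower and none higher, and cell cycle control genes 5 of 11 lower and 2 higher. The 10 highest in ratio included the haemoglobin genes Hbb-bs and Hba-a1 and the neutrophil gene Ltf, which came from a few cells.

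Markers of other cell types were summed for each group. All 11 neutrophil markers were above 0, with a summed level of 4984 CPM against 1924 in the non-cycling Prss34-low and 3847 in the cycling Prss34-high cells, led by S100a9 at 1769 CPM, and 10 cells held 96.3% of those UMIs. All 12 erythroid markers were above 0, with 407 against 56.6 and 327 CPM, led by Hbb-bs, of whose 2413 UMIs 96.1% lay in 5 cells. Without the cells that had at least 1% haemoglobin or 0.5% neutrophil marker UMIs, 552 cells were left, the neutrophil sum was 190 against 241 and 241 CPM, and the erythroid sum 72.2 against 56.4 and 62.4 CPM. Then 104 genes were at least 2-fold higher and 10 lower against the non-cycling Prss34-low cells, and 5 higher and 26 lower against the cycling Prss34-high cells. The neutrophil and erythroid genes at least 2-fold higher, 6 of 7 and 2 of 2 against the non-cycling cells, were 0 of 2 and 0 of 0 compared without those cells.

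Mast cell markers summed to 2315 CPM, of which Cpa3, shared with basophils, gave 2281, and 4 of the 10 (Mcpt4, Tpsb2, Mrgprb1 and Mrgprb2) were at 0. Cma1, the mast cell chymase, had 22 UMIs. Eosinophil markers summed to 71.4 CPM, led by Alox15, against 79.5 and 176 CPM, with none of 10 at 0, and were under 0.5% in every cell. Megakaryocyte markers summed to 182 CPM, led by Itga2b at 142 CPM, with 3 of 9 at 0. B cell markers summed to 39.0 CPM, led by Cd79b, with 6 of 12 at 0, and monocyte markers to 39.1 CPM, led by F13a1, with 1 of 11 at 0. T and NK cell markers summed to 950 CPM, of which Nkg7, also a gene of granulocyte progenitors, gave 857, with 5 of 9 at 0. Dendritic cell markers summed to 133 CPM against 62.7 and 57.8 CPM, with 2 of 9 at 0. Tcf4 led at 49.6 against 49.7 and 34.9 CPM, so it did not give the excess over the non-cycling cells. Whether a few cells gave the excess was not tested. Granulocyte and monocyte progenitor markers were the highest sum, 13431 CPM, led by Ctsg at 4035 CPM, with none of 10 at 0.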

How the data were processed

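The cKIT+ and cKIT- fractions of E-cadherin+ marrow cells were each sequenced as 1 droplet 3' library. The authors deposited filtered matrices of raw UMI counts (whole numbers); the submitters' processing notes name Cell Ranger 3.0.2 and mm10, and the annotation release is not given in the sources used here. The labels name kit version v2 and the study's methods v3. Of 31053 gene IDs, 31011 were in GENCODE M21 (GRCm38), used for coordinates.

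Cells were selected as described, and UMIs were summed per group. The members, lists and comparisons were chosen with earlier results of these data known. Genes of at least 50 CPM in either group were compared, without those of the selection; named genes were those of the selection and sort, list members with high levels or ratios, and the 10 largest ratios per direction. Cycling shares and shares of cells with a UMI were repeated after thinning each cell to 2000 UMIs, and all members exceeded 2000 UMIs. Doublets were kept: Scrublet marked 256 of 6632 cKIT+ cells, 28 of them members, and 3 of 3745 cKIT- cells, too few to count as working. Python 3.11.15, NumPy 2.4.6, SciPy 1.17.1, pandas 2.3.3 and Scanpy 1.11.5 were used, and the steps were tested on simulated data. The planned comparison with cKIT- cells met 7 cells and was extended to 975.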

Additional observations from a re-analysis of the deposited data

How the results depend on the processing

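The limits set the size of the group and, with it, the values. Of 180 values under an alternative, 147 moved by less than their counting interval (or, for gene counts, by less than 1.5 times), 33 moved by more and 0 changed direction; the cause was not tested except where fewer genes, cells or UMIs follow from the alternative itself. With Prss34 under 0.5%, 360 cells were left, and the Cdh1 ratio was 0.549 over non-cycling Prss34-low, 0.580 over cycling Prss34-high, 0.166 over the 2 matching cKIT- cells left and 0.387 over all cycling cKIT- cells, the S phase share of UMIs 0.388% and the G2 and mitosis share 0.840%. With at least 4 UMIs of Mki67 and Top2a, the cycling share was 43.4% of Prss34-low and 62.7% of Prss34-high cells, and the G2 and mitosis share 0.941%.

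Thinned to 2000 UMIs before the selection, with 1 UMI of Mki67 and Top2a asked for, the cycling shares were 38.9% and 57.8%. The Kit ratio over Prss34-high cells was 2.89 (1.51 to 5.52), an interval that takes in the 2.28 found without thinning. The G2 and mitosis share was 0.899%. Genes at least 2-fold lower were then 25 against non-cycling Prss34-low cells, and 16 were higher and 37 lower against Prss34-high cells, so the share of higher genes went from 91.2% to 80.0% and from 18.5% to 30.2%. With at least 5000 UMIs per cell, 5 genes were lower than in the non-cycling cells. With a 200 CPM minimum, 29 were higher and 2 lower than in non-cycling Prss34-low cells, 0 and 2 than in Prss34-high cells, and 79 and 89 than in cycling cKIT- cells. Without the 10 most abundant genes, 394 were lower than in the cKIT- cells, the Cdh1 ratio was 0.399, the S phase share 0.420% and the G2 and mitosis share 0.940%. Leaving out the highest Scrublet scores (53 members) gave shares of 0.389% and 0.876%. With each cell given the same weight, 22 genes were lower than in the non-cycling cells, and the shares were 0.397% and 0.812%.

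Leaving out mixed-lineage cells or shared barcodes, both chosen after seeing the data, moved none of these results; 189 genes were higher and 257 lower than in cKIT- cells without shared barcodes, 188 and 261 without mixed-lineage cells. No Kit ratio or gene count was made against the 7 cKIT- cells, which had 0 Kit UMIs. No paired analysis was possible because each sort has 1 library. Single libraries leave the spread between animals or sorts unmeasured, and the shallower cKIT- library limits low genes most.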
